A study of Mus musculus with 8 samples.

Results

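The 76 probes described here are 60-base oligos of a mouse expression array. Their signal in footpad skin was lower at embryonic stage E17.5 than at E16.5, 1 day earlier, in wild type and in conditional Dicer knockout. They were chosen by measured values of these same arrays, from 42006 probes that were not controls. The value used was M, the log2 ratio of the processed footpad signal (dye Cy3) to the processed signal of a reference RNA (dye Cy5) on the same spot. A probe had to be well above background in Cy3 on all 4 E16.5 arrays and in Cy5 on all 8 arrays, with no spot marked as non-uniform on any array. These criteria were met by 25569 probes. Its mean M then had to fall by at least 1 from E16.5 to E17.5 in each genotype, and the genotypes had to differ by under 1 at E17.5. The 76 members are 0.297% of the 25569 probes. With the normexp background correction in place of the processed signals, the rule found 47 probes without the marked spots and 50 with all spots.

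The study asked which transcripts depend on microRNAs while footpad sweat glands develop. Footpad skin was taken from C57BL6 embryos of 2 genotypes, a conditional Dicer knockout (DcKO) and wild type (DcWT), at E16.5 and at E17.5, which makes 4 groups of 2 arrays. Each array held RNA pooled from the footpads of 3 to 5 embryos, in Cy3, against a universal mouse reference RNA in Cy5, with no dye swap. The labels call the arrays of a group biological replicates. They do not give the Cre line, so the cells that lost Dicer are not known here. All E16.5 arrays lay on 1 slide and all E17.5 arrays on another. Stage and slide therefore cannot be told apart, while DcKO and DcWT of 1 stage shared a slide. The files name no gene, so Dicer1 and the markers of skin cells could not be looked up, and probes are given by their identifiers. In whole skin, fewer cells of a type and less RNA per cell cannot be told apart.

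The footpads are hairless pads of the mouse paw and the only skin of this animal with eccrine sweat glands. The glands begin as buds of the embryonic epidermis that grow down into the dermis, while the epidermis above stratifies and the bones, tendons and muscles of the paw mature beneath. Dicer cuts precursor RNAs into mature microRNAs, short RNAs that pair by their seed with messenger RNAs and lower their stability or translation. Oligo probes of expression arrays often lie near the end of a transcript, where the hexamer AATAAA is the usual signal for cutting the RNA and adding the poly(A) tail.

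The sequences below show a stretch of 30 bases of each of the 10 members with the largest mean fall in M. They run 5′ to 3′ as on the array. The order is by measured M, and some of the 10 were dim at E17.5. Capitals mark AATAAA where the probe holds it, and the stretch is then set around it. The other stretches are the first 30 bases of the probe.
Z00034626-1: cctcgacttgtcAATAAAactatcctccaa
Z00059474-1: ggccaaggatgcctttgtccatctttcaga
Z00049267-1: ctcttctgggatcaccccctaatctcacaa
Z00046024-1: tggcttggcatgagcccggatgcagtcctg
Z00053215-1: gctaccagactccagggaaccatcaatagg
Z00056405-1: tcgtctagcttattatttgtctcacctgga
Z00037296-1: ctatataagacagaaagtttggagaatgga
Z00042230-1: aacaatcgtaaagattactaaaaacttccc
Z00074285-1: gtgggcgggcctcccctgagcccgtctgtg
Z00046776-1: gctgatgaggagtactctgtcaattaaata
These 10 share no run of 20 bases with one another. The position of a probe in the genome was not analysed here, since neither the files nor the tables used give it.

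The median M of the 76 members was 1.10 and 1.04 on the DcWT arrays of E16.5 (replicates 1 and 2) and -0.49 and -0.63 on those of E17.5. In DcKO it was 1.10 on both arrays of E16.5 and -0.44 and -0.12 on those of E17.5. The 4 arrays of E16.5 thus lay close together, and those of E17.5 were lower and more spread, with DcKO replicate 2 the highest of the later arrays. In each of the 76 members, both E17.5 arrays were below both E16.5 arrays in DcWT and in DcKO. The same was true of 24.9% of the 25569 probes. The rule selected for this separation, so nothing is read from it.

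The change in mean M from E16.5 to E17.5 ran from -4.22 to -1.01 over the members in DcWT, with a median of -1.93. In DcKO it ran from -3.38 to -1.01, with a median of -1.55. The normexp correction gave smaller median changes for the same members, -1.24 in DcWT and -1.01 in DcKO without the marked spots, and -1.21 and -0.89 with all spots. Over the 25569 probes the median change was -0.02 in each genotype, which the dye normalization of each array sets near 0 whatever the slides did. Both measured changes in M were at least 4-fold in 13 members, of which 8 were well above background on all 8 arrays, and at least 8-fold in 4, of which 3 were. As description only, limma called 70 members lower at E17.5 in DcWT (adjusted p under 0.05), where it called 9.04% of the probes tested. In DcKO it called 69 members lower, against 12.2% of the probes tested.

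The rule has a threshold at a fall of 1. Just inside it were Z00076702-1, which changed by -1.006 in DcWT and -1.041 in DcKO, and Z00034711-1, at -1.526 and -1.013. Just outside it were Z00033359-1, at -0.996 and -1.224, and Z00057113-1, at -1.814 and -0.993. The limit on the genotypes at E17.5 left out 17 of the 93 probes that fell by at least 1 in both. In 15 of these 17 DcKO was at least 1 above DcWT at E17.5, and in 2 it was at least 1 below. The mirrored rule, a rise by at least 1 in both genotypes, was met by 153 probes.

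Z00034626-1, the member with the largest mean fall, was also bright. Its Cy3 signal was 34200 and 31800 in DcWT at E16.5 and 2140 and 1680 at E17.5. In DcKO it was 31500 and 35200 at E16.5 and 2210 and 3880 at E17.5. The reference signal stayed between 21400 and 30900 on all 8 arrays, so the fall lay in the footpad channel. Its M was 0.44 and 0.17, then -3.85 and -3.98, in DcWT, a change of -4.22 or 18.6-fold. In DcKO M was 0.08 and 0.38, then -3.27 and -2.78, a change of -3.26. At E16.5 the footpad and reference levels were thus close, and at E17.5 every footpad array was far below the reference.

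Z00059474-1, Z00046024-1 and Z00037296-1 were high above the reference at E16.5 and still above it at E17.5. M of Z00059474-1 was 4.82 and 4.24 in DcWT at E16.5, then 1.29 and 0.44, and in DcKO 4.87 and 5.20, then 1.49 and 1.82. M of Z00046024-1 was 4.17 and 3.92, then 0.40 and 0.38, in DcWT, and 3.76 and 4.05, then 0.59 and 1.13, in DcKO. M of Z00037296-1 was 4.21 and 4.08, then 0.49 and 0.44, in DcWT, and 3.86 and 4.13, then 1.32 and 1.47, in DcKO. In each of these 3 probes the lowest E16.5 array was at least 8-fold above the reference, and no later array of either genotype reached the earlier ones. The Cy3 signal of Z00059474-1 went from 5020 and 3590 to 347 and 182 in DcWT, and from 5690 and 7580 to 277 and 431 in DcKO. That of Z00046024-1 went from 3080 and 3010 to 256 and 214, and from 2740 and 3540 to 205 and 355. All 3 remained well above background at E17.5.

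Z00074285-1 went from above the reference to about its level. Its M was 2.43 and 2.51 in DcWT at E16.5 and -0.49 and -0.61 at E17.5, and in DcKO 2.49 and 2.57, then -0.29 and 0.12. Its Cy3 signal was 6500 and 8590, then 898 and 749, in DcWT, and 7930 and 8000, then 774 and 1120, in DcKO. The replicates of this probe lay close together, with SDs of M of 0.05 to 0.29 (n = 2) in the 4 groups, against changes of -3.02 in DcWT and -2.62 in DcKO.

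Z00042230-1 and Z00053215-1 were below the reference at both stages. M of Z00042230-1 was -1.92 and -2.08, then -5.22 and -5.12, in DcWT, and -2.17 and -1.75, then -5.22 and -4.18, in DcKO. M of Z00053215-1 was -0.45 and -0.32, then -3.85 and -4.27, in DcWT, and -0.46 and -0.49, then -3.47 and -3.28, in DcKO. Footpad signal of both was thus below that of the reference at either stage, and further below it at E17.5. At E17.5 Z00053215-1 was well above background on only 1 array of each genotype.

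The remaining 3 of the 10 were dim at E17.5. Z00049267-1 was well above background on both DcWT arrays of E17.5 and on 1 of the 2 DcKO arrays. It had M values of 4.15 and 3.70, then 0.78 and -0.14, in DcWT, and 4.10 and 3.73, then 0.06 and 1.52, in DcKO. Z00056405-1 had 2.49 and 2.54, then -0.75 and -1.78, in DcWT, and 2.40 and 2.42, then -0.13 and -0.40, in DcKO. It was not well above background on any E17.5 array, so its fall has only a bound, at least 8.24-fold in DcWT and at least 4.37-fold in DcKO. Z00046776-1 had 0.08 and 0.18, then -2.59 and -2.58, in DcWT, and 0.42 and 0.58, then -1.75 and -1.89, in DcKO. Its Cy3 signal was already low at E16.5, at 37.5 to 54.1, and the bound is at least 1.32-fold in DcWT, with none in DcKO. A bound sets the mean normalized Cy3 level at E16.5 against the dimmest level well above background on the E17.5 arrays, or the probe's own level where that was higher. It is thus a value of Cy3 and not of M, and can exceed the measured fall in M.

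Of the 76 members, 52 were well above background on all 4 E17.5 arrays, 13 on 1 to 3 of them and 11 on none. Neither E17.5 array measured 11 members in DcWT and 15 in DcKO, and for these M at E17.5 is a measured value without a secure level. A bound could be given for all 11 in DcWT and for 12 in DcKO, from at least 1.02-fold to at least 8.24-fold. In the 52 members measured on all arrays the median change was -1.99 in DcWT and -1.44 in DcKO. No member spot was saturated in either dye.

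M is a ratio, so its change was split into the 2 dyes. The log2 change of the processed Cy3 signal had a median of -2.04 in DcWT and -1.93 in DcKO over the members, against -0.02 and -0.29 over the 25569 probes. That of Cy5, the reference that was the same RNA on all arrays, had a median of -0.03 and -0.33, against 0.00 and -0.28. The members' fall thus lay in the footpad channel, and Cy5 was lower in DcKO at E17.5 in 73 members and in 95.8% of the 25569 probes. Cy3 alone fell by at least 1 in both genotypes in 72 members. Cy5 was lower at E17.5 in both genotypes in 46 members (60.5%), against 48.1% of the 25569 probes. Its change was over 1 in size in 3 members.

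One of those 3 was Z00024612-1, which was chosen for mention after its values were seen. Its M was 5.11 and 4.81, then 3.04 and 3.02, in DcWT, and 4.96 and 5.22, then 0.93 and 3.14, in DcKO. The 2 DcKO arrays of E17.5 disagreed by 2.21, the largest gap within a group among the members. Their Cy3 signals were 322 and 228, whereas their Cy5 signals were 169 and 25.8, so the gap lay in the reference spot of replicate 1. The size of its fall in DcKO, -3.06, rests on that spot.

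Between the 2 arrays of a group, M of a member differed by a median of 0.17. The difference was over 1 in 15 of 304 pairs of arrays, none at E16.5, 4 in DcWT at E17.5 and 11 in DcKO at E17.5. These probes thus spread more on the E17.5 arrays, where they were also dimmer. The rule asked for Cy3 well above background only at E16.5, so dim spots could enter at E17.5. Whether dimness had a part in the spread was not tested. Stage and slide cannot be told apart here, and the same count over the 25569 probes is not given, so the spread is not read as particular to the members. The median Cy3 signal of the members was 539 to 653 on the 4 E16.5 arrays and 127 to 215 on the 4 E17.5 arrays, against 820 to 1140 for the 25569 probes over all 8 arrays.

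At E16.5 the members were above the reference in both genotypes in 54 cases (71.1%), compared with 44.7% of the 25569 probes. The rule asked for M at E16.5 to be at least 1 above M at E17.5, so this share is partly set by the choice. At E17.5, 26 were above it in both genotypes. The sign of mean M went from positive to negative in both genotypes in 23 members, and 18 were below the reference in all 4 groups. Mean M at E16.5 ran from -4.69 to 5.86 in DcWT and from -4.21 to 5.83 in DcKO, so the members differed widely in their level relative to the reference. The group medians of mean M were 1.05 in DcWT and 1.11 in DcKO at E16.5, and -0.65 and -0.27 at E17.5.

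The rule set no limit on DcKO against DcWT at E16.5, before the fall. It did use the E16.5 values of both genotypes, since the falls and the limit at E17.5 together bear on this difference. The members' counts and median here are therefore partly set by the choice. No member was called by limma at an adjusted p under 0.05, over 29015 probes tested, of which 97 were called (0.334%). The 97 are not a stable count, since leaving out any 1 array left 0 to 5 of the probes tested called. The unadjusted p was under 0.05 in 13 members, against 18.1% of the probes tested, so with the values used here the members' count was near that background. This count moved with the setting. It was 6 with normexp on all spots, 23 with normexp without the marked spots and 20 in a fit of the E16.5 arrays only. The share of the probes tested is not given for these alternatives, so nothing is read from their counts. Of the 13, 12 were higher and 1 was lower in DcKO, while 8.75% of the probes tested were higher and 9.36% lower at that p. The difference in mean M ran from -0.53 to 0.57 over the members, with a median of 0.01, the same as over the 25569 probes. DcKO was above DcWT in 41 members and below in 35. The median SE of the difference was 0.16 for a member and 0.08 for a tested probe. In this fit smaller differences could thus be resolved for most probes than for most members. Each SE uses a spread taken over all 8 arrays, so the E17.5 arrays enter it as well. Z00056405-1, as 1 example, had SDs of M of 0.03 in DcWT and 0.01 in DcKO at E16.5 (n = 2). Its SD was 0.73 in DcWT at E17.5, and its SE was 0.32.

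The 5 members with the smallest p at E16.5 are shown by the first 30 bases of each probe, because they came nearest to a difference between genotypes before the fall, though none passed the adjusted threshold. None holds AATAAA, so there are no capitals.
Z00046776-1: gctgatgaggagtactctgtcaattaaata
Z00036670-1: tacctgaataacatagtgcaggtcaaacaa
Z00034711-1: atgtgacaggctcatgtctgggaaccaaca
Z00029554-1: tgtcactggagtggagagaaatgcagttat
Z00005895-1: gatgcaagaggtaagagctgtctccagtct
Z00046776-1 was higher in DcKO at E16.5 by 0.37 ± 0.08 (SE; limma adjusted p = 0.118). With either normexp correction its difference was -0.03, and that of the next, Z00036670-1, was 0.15. Z00036670-1 had M values of 0.06 and -0.11 in DcWT and 0.54 and 0.56 in DcKO, a difference of 0.57 ± 0.14 (SE; limma adjusted p = 0.139). Z00034711-1 had 1.32 and 1.36 against 1.59 and 1.54, a difference of 0.22 ± 0.06 (SE; limma adjusted p = 0.148). In these 3 probes both DcKO arrays were above both DcWT arrays, which a pick by the smallest p favours. The share of the probes tested with such a separation is not given here, so nothing is read from it. Z00029554-1 had 0.44 and 0.37 against 0.91 and 0.75, a difference of 0.42 ± 0.11 (SE; limma adjusted p = 0.162), which was 0.19 and 0.2 with the normexp corrections. Z00005895-1 had 1.18 and 1.09 against 0.87 and 0.82, a difference of -0.29 ± 0.08 (SE; limma adjusted p = 0.17). It was the member lower in DcKO among the 13, again without overlap of the arrays, which is likewise description only. Z00046776-1, Z00036670-1 and Z00029554-1 were dim at E16.5, with Cy3 signals of 37.5 to 118. Z00034711-1 was bright, with 3200 and 3920 in DcWT and 4530 and 4360 in DcKO.

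At E17.5 the rule limited the difference between genotypes to under 1, and the values there are description. DcKO was above DcWT in 64 of the 76 members (84.2%), against 49.97% of the 25569 probes, with a median difference of 0.40 over the members and 0.00 over the 25569 probes. The fall was larger in DcWT in 57 members and larger in DcKO in 19. Limma called 17 members higher in DcKO at E17.5, where it called 4.04% of all probes tested higher. It called 0 members lower, and the share of all probes tested called lower is not given here. Since the rule asked for a fall in both genotypes and left out 15 probes with a much higher DcKO level, these counts are set partly by the choice.

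The higher DcKO level at E17.5 was larger in the members with the largest falls. The rule used both values, and near its threshold both falls are held close to 1, so this order is partly set by the choice and has no test. Of the 27 members with a mean fall of at least 2, DcKO was above DcWT at E17.5 in 26, with a median difference of 0.68. Of the other 49 it was above in 38, with a median of 0.32. At E16.5 the median difference was -0.08 in the 27 and 0.12 in the 49.

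One array moved with this pattern. DcKO E17.5 replicate 2 was the highest of the 4 E17.5 arrays in 51 members and replicate 1 in 16, while a DcWT array was the highest in 9. Over the 25569 probes each of the 4 arrays was the highest in 22.2% to 27.6%. Without DcKO E17.5 replicate 2 the median difference at E17.5 went from 0.40 to 0.23, and DcKO was still above DcWT in 59 members. Without DcKO E17.5 replicate 1 these values were 0.53 and 69. Without either of the DcWT arrays of E17.5 the median was 0.37 or 0.48 and the count 63 or 65. With the normexp correction the median was 0.22 without the marked spots and 0.25 with all spots, and DcKO was above DcWT in 65 and 60 members. The sign of the median was thus the same without each of these arrays and under normexp, whereas its size fell without DcKO replicate 2 and under normexp, and the part of that array in the difference was not tested.

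Several members are probes for overlapping or near-identical sequence and are not independent. Grouping members that share a run of 20 bases gave 68 groups, of which 5 held more than 1 member, 13 members in all. The largest group held 5. Its members are shown by the same stretch of each, aligned, with capitals at a base that differs from the sequence of Z00075781-1 there. Z00075784-1 and Z00075782-1, which are not members, have the same stretch and are shown with them.
Z00075781-1: tattgcatctctattccctaagcatttgta
Z00076172-1: tattgcatctctattccctaagcatttgta
Z00063676-1: tattgcatctctattccctaagcatttgta
Z00025464-1: tattgcatctctattccctaagcatttgta
Z00075785-1: tattgcatctctatCccctaagcatttgta
Z00075784-1: tattgcatctctatCccctaagcatttgta
Z00075782-1: tattgcaActctattccctaagcatttgta
None of the 5 members was well above background on any E17.5 array, so their measured changes in M have no secure size. These were -2.42 (Z00075781-1), -2.83 (Z00076172-1), -2.57 (Z00063676-1), -1.23 (Z00025464-1) and -2.51 (Z00075785-1) in DcWT. In DcKO they were -1.31, -1.85, -1.62, -1.71 and -2.0, in the same order. The bounds, which are in normalized Cy3 and not in M, were at least 1.69-fold to at least 2.40-fold in DcWT. The highest, of Z00025464-1, is above its measured fall in M of 2.34-fold, so it is no minimum for that fall. In DcKO they were at least 1.02-fold to at least 1.44-fold for 4 of the probes, with none for Z00075781-1. Further along, each of the 7 holds the same AATAAA, shown by the following stretch.
Z00075781-1: atttgtatgtgaAATAAAtagattctcagt
Z00075781-1 and Z00076172-1 are identical over all 60 bases, so they show how far the same oligo differed between spots. M of Z00075781-1 was -0.97 and -1.62, then -3.52 and -3.91, in DcWT, and -1.74 and -1.48, then -3.52 and -2.32, in DcKO. M of Z00076172-1 was -1.11 and -1.29, then -4.32 and -3.74, and -1.46 and -1.17, then -3.88 and -2.46. The gap between both spots had a median of 0.30 over the 8 arrays and a maximum of 0.79, with Cy3 signals of 7.36 to 83.9. Both spots were lower on the 4 E17.5 arrays than on the 4 E16.5 arrays.

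Probes that were brighter matched more closely. Z00024325-1 and Z00060342-1 cover the same sequence shifted by 1 base, as their first 30 bases show, with no capitals.
Z00024325-1: ttctacacagcgtgggtttccttcacctgc
Z00060342-1: tctacacagcgtgggtttccttcacctgct
M of Z00024325-1 was 3.09 on both arrays, then 0.92 and 0.71, in DcWT, and 3.22 and 3.24, then 1.48 and 1.65, in DcKO. M of Z00060342-1 was 3.35 and 3.30, then 1.25 and 0.83, and 3.36 and 3.29, then 1.65 and 1.85. Both gave a change of about the same size, -2.27 and -2.29 in DcWT and -1.67 and -1.57 in DcKO, and their M differed by at most 0.33 on any array.

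Z00000336-1 and Z00055328-1, which also overlap, were the brightest probes named here. The Cy3 signal of Z00000336-1 was 156000 and 189000, then 32600 and 25600, in DcWT, and 184000 and 170000, then 41600 and 59800, in DcKO. Z00055328-1 went from 123000 and 140000 to 25600 and 19100 in DcWT, and from 143000 and 125000 to 28100 and 43100 in DcKO. The change in M was -1.93 and -2.07 in DcWT and -1.12 and -1.28 in DcKO. Although far lower than at E16.5, both probes remained among bright signals at E17.5, above the reference on all arrays, with the lowest M at 1.56. Z00000336-1 holds AATAAA, in capitals here.
Z00000336-1: gctgttggctttAATAAAgggcctctctga
The other 2 pairs also had close mean changes, though the rule asked each of these probes to fall. Z00004889-1 and Z00075322-1 changed by -2.82 and -2.75 in DcWT and by -2.15 and -1.93 in DcKO. Z00038597-1 and Z00055332-1 changed by -1.45 and -1.37, and by -1.22 and -1.36. Their single arrays in DcKO at E17.5 were less alike, with M of -0.52 and 0.66 against 0.04 and -0.11. Z00038597-1 was well above background on only 1 E17.5 array of each genotype. Z00055332-1 was not well above background in DcKO at E17.5, where its bound was at least 2.39-fold.

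Overlapping probes outside the 76 tell how the thresholds act on 1 sequence. In all, 8 non-members shared a run of 20 bases with a member, and 6 of them met the detection criteria. Each of the 6 was lower at E17.5 in both genotypes. Z00039981-1, which overlaps Z00056405-1, changed by -3.82 in DcWT and -2.46 in DcKO and was left out because DcKO was 1.15 above DcWT at E17.5. Z00075784-1, of the group of 5, changed by -2.70 and -1.17 and was left out by a difference of 1.05. These 2 were well above background in Cy3 on 4 of the 8 arrays, which are those of E16.5, so the differences that left them out compare dim spots. The other 4 fell by less than the rule asked in at least 1 genotype. They were Z00075783-1 at -0.98 and -0.74, Z00076286-1 at -1.05 and -0.88, Z00030897-1 at -0.59 and -0.57 and Z00055375-1 at -0.72 and -0.74. These 6 probes thus shared the direction of the members they overlap but not the side of the threshold, as description only.

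The sequences of the members were searched for short motifs on the strand of the probe and on the other strand. AATAAA was in 14 members (18.4%), against 7.67% of the 25569 probes, all 60 bases long. Since 5 of the 14 are probes of the group above, the share was also taken over sequence groups, where 10 of 68 held it (14.7%). Its reverse complement was in 1 member, and in 3.12% of the 25569 probes. None of the motifs searched holds another. The variant signal ATTAAA was in 4 members (5.26%, against 3.41%). The AU-rich element core ATTTA was in 7 (9.21%, against 7.21%), and TGTANATA, the Pumilio motif, in 1 (1.32%, against 1.17%).

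Matches to the seeds of microRNAs were also counted. CTACCTC, the match of the let-7 seed, was in 1 member (1.32%) and in 0.395% of the 25569 probes. CATTTCA, a match of the miR-203 seed, was in 2 (2.63%, against 0.677%). CAGTATT (miR-200), ATGAAGG (miR-205), GCACTTT (miR-17) and TGTTTAC (miR-30) were in 0 members, and in 0.567%, 0.602%, 0.485% and 0.614% of the 25569 probes. Counts this small give no difference in either direction. A match is a description of the letters in 60 bases, and no match says nothing of the rest of a transcript. On the other strand, ATTAAA was in 5 members (2.29% of the 25569 probes), ATTTA in 10 (8.28%), TGTANATA in 1 (0.524%) and GCACTTT in 1 (0.446%), and the other seed matches were in 0. The median GC content of the members was 43.3%, against 45.0%.

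The spots of the members lay in all parts of the array of 532 rows and 85 columns, though not evenly. Divided by the middle row and column, the 4 parts held 28, 19, 12 and 17 members, against 24.1%, 25.7%, 24.6% and 25.6% of the 25569 probes. The first of these held the most members and the third the fewest, whereas the 25569 probes were nearly even. Whether place on the array had a part in the pattern was not tested.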

How the data were processed

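RNA of 8 pools was measured on 2-colour arrays read with Agilent Feature Extraction 9.5.1.1, per the file headers. The deposited files hold processed intensities, from which that program had removed the background and the dye bias. The authors' deposited series matrix holds log10 values, which equalled log10(Cy3/Cy5) plus each probe's mean log10 Cy5 to within 0.00016 over 24645 probes. The medians of its columns were 2.23 to 2.24. Between 61.9% and 71.9% of probes were well above background in Cy3, and 269 to 364 spots an array were marked as non-uniform.

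M was log2 of processed Cy3 over Cy5, with no further normalization. Control spots and marked spots were left out. A probe was tested where both arrays of any group were well above background in Cy3, with limma 3.58.1 under R 4.3.3 (lmFit and eBayes on 4 group means over all 8 arrays, Benjamini-Hochberg adjustment over all probes tested). The procedure was tested on simulated data. With 2 arrays a group, their number limits the precision. An exact permutation test of 2 against 2 arrays cannot go below 0.33 (two-sided). Bounds ("at least") use Cy3 levels after loess and Aquantile, and are open to dye bias without a dye swap.

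The members and lists were chosen with earlier results of these data known. Named were the 10 members with the largest mean fall, the 5 with the smallest p at E16.5 and those nearest the threshold. Overlapping probes and Z00024612-1 were named after their values were seen. The rule also asked for gene symbols, and lists of skin genes and cell type markers were drawn up. None of the 42006 identifiers is in the table of 49997 genes used, so these lists are not analysed here and the labels could not be checked against Dicer1. Alternatives covered the background correction, centring, Cy3 alone, the series matrix, the filters, the thresholds, single arrays, the prior and a replicate block.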

Additional observations from a re-analysis of the deposited data

How the results depend on the processing

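The rule found 70 to 97 probes under most alternatives, with 76 under the values used here and with the series matrix. It found 52 with all probes well above background on all 8 arrays and 51 with falls of at least 1.2. With the normexp background correction it found 47 (marked spots left out, 38 of them members) and 50 (all spots, 31 members). Leaving out each array in turn gave 70 to 86. Of the members, all 76 were lower at E17.5 in both genotypes under each normalization except normexp on all spots, where 71 were. The 38 members lost with normexp without marked spots had a median Cy3 signal at E17.5 of 43.6, against 449 in the 38 kept. That correction adds an offset of 50 to each dye, and whether the offset had a part in the loss was not tested.

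At E16.5 no member was called by limma under any alternative. The smallest adjusted p of a member ran from 0.0531 (Cy3 alone) to 0.778 (normexp on all spots), and the probes called over the whole array from 0 to 855. Leaving out any 1 array left 0 to 5 probes called. The median difference over the members stayed between -0.035 and 0.076 when each array was left out, and was 0.031 with 1 probe per sequence group, an alternative chosen after seeing the data. The replicate numbers did not pair the arrays (correlations of deviations from -0.10 to 0.12). With a replicate block 0 probes were called, the members' median stayed 0.014 and 17 members had an unadjusted p under 0.05.

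Among named probes, some differences at E16.5, none of them called, changed sign. When each array was left out in turn, Z00034626-1 ran from -0.23 to 0.08 (0.06 without DcWT E16.5 replicate 1), Z00049267-1 from -0.24 to 0.21 (0.18 without DcKO E16.5 replicate 2), Z00046024-1 from -0.28 to 0.01, and Z00042230-1 from -0.17 to 0.25 (-0.04 without DcWT E16.5 replicate 2). Z00049267-1 also went to 0.02 with normexp on all spots and 0.01 with median centring, and Z00037296-1 to 0.0 with Cy3 alone. Z00046776-1 went to -0.03 under either normexp correction. The cause of these changes was not tested. Naming probes through proteins, and its alternative of 17 residues, was not run, since no protein table was used here.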
